A study of Homo sapiens with 6 samples.

Results

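The gene set described here comprises the dual specificity phosphatases (DUSP), the Sproutys (SPRY) and the Sprouty-related SPRED proteins, which act as brakes on mitogen-activated protein kinase (MAP kinase) signalling. Members were taken by symbol from the protein-coding rows of the gene count table, as every DUSP followed by a number, SPRY1 to SPRY4 and SPRED1 to SPRED3. This gave 31 genes (24 DUSP, 4 SPRY and 3 SPRED) among 19951 protein-coding genes and 58735 genes in all. The counts come from the triple-negative breast cancer line MDA-MB-231, an established human line, in 3 libraries labelled PM2.5 (cells given airborne particulate matter of fine size, with RNA taken after 48 h) and 3 libraries labelled Control. Neither the particle dose nor what the Control cells received is given in the sources used here. The design text speaks of biological replicates without saying how separate the cultures were, so p-values measure the spread between these libraries, which may be partly technical. All libraries come from 1 cell line, and since RNA was taken in bulk, fewer cells with a transcript and less transcript per cell cannot be told apart.

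ERK, JNK and p38 are the main MAP kinases, and each is switched on by phosphorylation of a threonine and a tyrosine in its activation loop. The typical DUSPs, also called MAP kinase phosphatases, bind a MAP kinase and remove both phosphates. Several of their genes are themselves induced by ERK activity, so that they form a negative feedback loop. The atypical DUSPs are small, lack the kinase-binding domain and act on varied substrates. Sproutys and SPREDs are membrane-associated adaptors that dampen growth factor signalling to ERK at or above RAS and RAF. MDA-MB-231 cells are known for mutations that keep this pathway active.

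Total counts ran from 32187965 to 34691009 in the PM2.5 libraries and from 31846136 to 33495707 in the Control libraries. VIM and CD44, which this line expresses strongly, together had 4159 to 4289 CPM (counts relative to the TMM-scaled library total) in the PM2.5 libraries and 3361 to 4073 CPM in the Control libraries, while ESR1, CD3E and PTPRC had no count in any library. Of the other genes listed as low in this line, PGR and CDH1 stayed at or under 0.181 CPM in every library. ERBB2, the HER2 receptor gene, was expressed, at 37.9 to 48.8 CPM in the PM2.5 libraries and 60.1 to 72.9 CPM in the Control libraries, and was called lower (log2 change -0.59 ± 0.11, SE, adjusted p = 0.00093). The 4 leukocyte markers summed to 2.53 to 3.73 CPM in the PM2.5 libraries and 1.14 to 2.29 CPM in the Control libraries, all of it from CD14. The 3 endothelial markers summed to 54.0 to 58.2 CPM in the PM2.5 libraries and 39.5 to 52.0 CPM in the Control libraries, nearly all of it from PECAM1, with CDH5 at 0 to 0.117 CPM in the PM2.5 libraries and 0 in the Control libraries. HMOX1, a haem-degrading enzyme that particulate matter is known to induce and that was chosen after its values were seen, had 51.3 ± 6.005 CPM in the PM2.5 libraries against 813 ± 58.3 CPM in the Control libraries (SD, n = 3 each). CYP1A1, a xenobiotic-metabolising enzyme also known to be induced by particulates, ran the same way, with 2.73 ± 0.650 CPM in the PM2.5 libraries against 6.29 ± 1.73 CPM in the Control libraries. HSPA5, a chaperone of the endoplasmic reticulum, ran the other way, with 12650 ± 384 CPM in the PM2.5 libraries against 5117 ± 1989 CPM in the Control libraries, and both genes were likewise chosen after their values were seen. Whether the labels of the groups are exchanged was not tested. Directions are given for the libraries as labelled, and every rise and fall below would turn round if they were. Control replicate 3 stood apart from the other two on the second principal component (score -36.94, against 16.48 and 14.83). Member results that rest on it are given with and without it. Proliferation differed strongly too: MKI67, a marker of cycling cells, had 160, 171 and 144 CPM in the PM2.5 libraries against 26.2, 21.0 and 23.9 CPM in the Control libraries, and its part in the results below was not tested.

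Levels within the family spanned several orders of magnitude. Measured per length (CPM per kilobase of exon), DUSP5, a nuclear phosphatase that dephosphorylates ERK and holds it in the nucleus, was the most abundant member, at 425 ± 26.2 in the PM2.5 libraries and 586 ± 116 in the Control libraries (SD, n = 3 each). DUSP6, the classical cytoplasmic ERK phosphatase, followed at 177 ± 4.44 in the PM2.5 libraries and 252 ± 20.9 in the Control libraries. SPRY4, a Sprouty, came next at 167 ± 9.91 in the PM2.5 libraries and 164 ± 14.05 in the Control libraries. DUSP1 had 138 ± 8.36 in the PM2.5 libraries and 150 ± 48.1 in the Control libraries, and SPRY2 had 115 ± 5.39 in the PM2.5 libraries and 127 ± 10.9 in the Control libraries. DUSP6 and SPRY4 lay within their spread of each other in the PM2.5 libraries, and DUSP1 lay within its spread of both SPRY4 and SPRY2 in the Control libraries. DUSP4 was the sixth, at 72.7 ± 7.30 CPM per kilobase in the PM2.5 libraries and 88.4 ± 3.54 in the Control libraries. These 6 genes, all of them known as targets of ERK feedback, held 88.1% of the summed level per length of the 31 members over the 6 libraries.

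**Figure D1:**
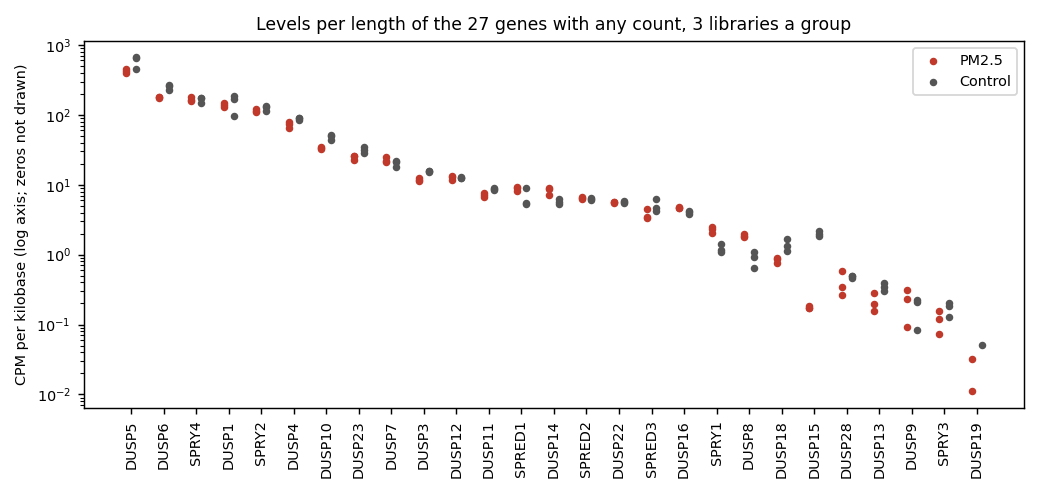
Level per length (CPM per kilobase of exon, log axis) of the 27 members with any count, ordered by their mean over the 6 libraries. Each point is 1 library, PM2.5 in red on the left and Control in grey on the right of each gene, and zeros are not drawn. The 6 most abundant genes lie above the rest, and DUSP15 shows the widest gap between the groups, at 0.178 ± 0.00559 in the PM2.5 libraries against 2.02 ± 0.172 in the Control libraries (SD, n = 3 each).

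At the other end, DUSP2, DUSP21, DUSP26 and DUSP27 had no count in any of the 6 libraries. With 3 counts as the limit that a count of 0 allows, their level was at most 0.0865 to 0.0932 CPM in the PM2.5 libraries and at most 0.0896 to 0.0942 CPM in the Control libraries. These limits cover counting error only. DUSP19 had 6, 2 and 0 counts in the PM2.5 libraries and 0, 9 and 0 counts in the Control libraries, and with the other 4 it fell under the filter on low counts. The remaining 26 members were tested.

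Of the 26 tested members 13 differed between the groups by the quasi-likelihood test of edgeR, called at a Benjamini-Hochberg adjusted p under 0.05 over all genes, where 31.9% of all 14975 genes tested were called. In the libraries labelled PM2.5 4 members were higher (DUSP8, DUSP14, SPRY1 and SPRED1), against a background of 16.1% of genes called higher, and 9 were lower (DUSP3, DUSP4, DUSP5, DUSP6, DUSP10, DUSP15, DUSP18, DUSP23 and SPRED3), against a background of 15.8% called lower. As shares of the 26, these are 15.4% higher, close to the background, and 34.6% lower, above it. The median log2 change over the tested members was -0.22, and that over all genes tested was -0.01. Libraries of PM2.5 and Control did not overlap for 14 of the 26 members (53.8%), against 44.3% of all genes tested. Only DUSP15 and DUSP8 changed by at least 2-fold among the called members, and 9 of the 13 changed by less than 1.5-fold. Leaving out PM2.5 replicate 1 reduced the lower members to 4, and leaving out PM2.5 replicate 2 or Control replicate 2 reduced them to 5. Over all genes the number called lower also varied with the library left out. The share of all genes called lower in these fits is not given here, so the drops cannot be set against a background.

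**Figure D2:**
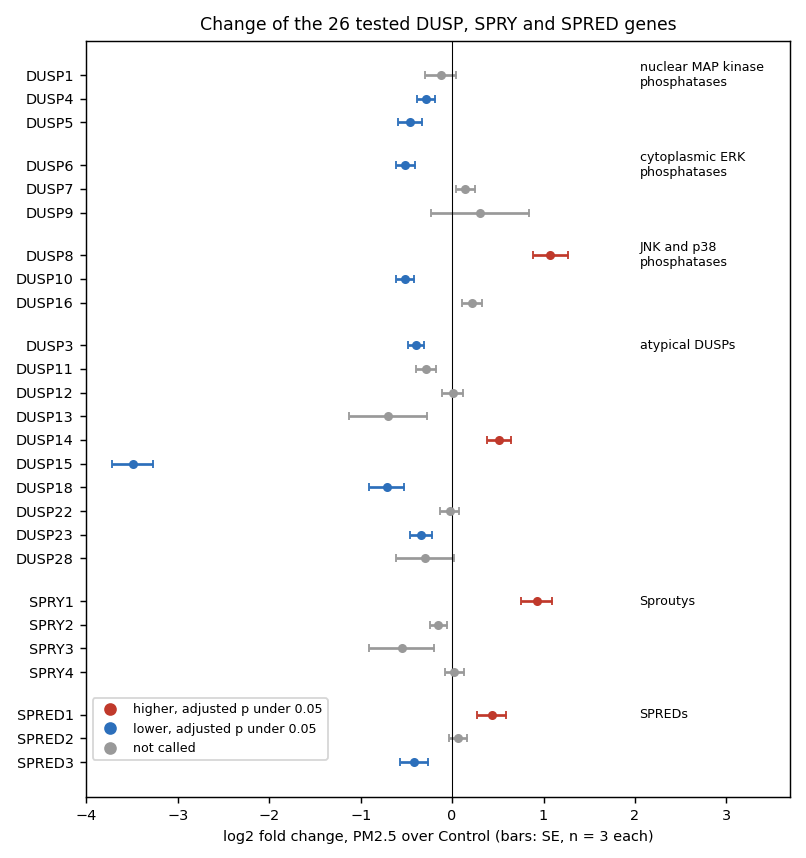
Log2 fold change, PM2.5 over Control, of the 26 tested members in their classes. Points are the estimates of edgeR's quasi-likelihood fit with bars of 1 SE (n = 3 libraries a group), in red where called higher, blue where called lower and grey where not called. DUSP15 lies far to the left at -3.50, and the other members lie between -0.72 (DUSP18) and 1.08 (DUSP8).

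Promoter windows from RefSeq (build GRCh38.p14) ran from 250 bases before to 50 bases after a transcript start, 300 bases in all. Windows of 25 of the 31 members were used, some members with several starts, 37 windows in all. They were searched on both strands for the cyclic AMP response element TGACGTCA, the AP-1 site TGAGTCA, the ETS site CCGGAAG, the antioxidant response element core TGACNNNGC and the E2F site TTTCGCGC. No window was used for DUSP4, DUSP5, DUSP12, DUSP13, DUSP26 or DUSP27, so the counts of matches do not cover these genes. The AP-1 and antioxidant patterns can share bases, which none of the matches printed here does. The cyclic AMP response element was found in 2 of the 37 windows, those of DUSP1 and DUSP8, against 1.85% of 35116 windows of all genes. AP-1 sites were in 2 windows (SPRED2 and SPRED3) against 4.95%, ETS sites in 2 (SPRY1 and DUSP15) against 10.3%, antioxidant cores in 5 (DUSP1, DUSP10, DUSP15, DUSP22 and SPRY4) against 13.35%, and E2F sites in 0 against 0.515%. A match describes the letters in the window and says nothing of binding. Windows are printed for the member with the largest rise as labelled (DUSP8), another inducible phosphatase whose window also holds the cyclic AMP element (DUSP1), the member with the largest fall (DUSP15) and the Sprouty that rose (SPRY1), 5′ to 3′ on the gene's strand with the matched motifs in capitals.
DUSP8, chr11:1572222-1572521, minus strand: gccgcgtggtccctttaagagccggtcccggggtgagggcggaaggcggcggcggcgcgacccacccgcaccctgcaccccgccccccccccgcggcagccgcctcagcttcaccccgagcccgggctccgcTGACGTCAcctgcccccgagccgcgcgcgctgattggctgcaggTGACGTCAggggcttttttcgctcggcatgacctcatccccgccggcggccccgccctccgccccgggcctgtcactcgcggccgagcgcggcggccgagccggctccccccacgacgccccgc
DUSP1, chr5:172771146-172771445, minus strand: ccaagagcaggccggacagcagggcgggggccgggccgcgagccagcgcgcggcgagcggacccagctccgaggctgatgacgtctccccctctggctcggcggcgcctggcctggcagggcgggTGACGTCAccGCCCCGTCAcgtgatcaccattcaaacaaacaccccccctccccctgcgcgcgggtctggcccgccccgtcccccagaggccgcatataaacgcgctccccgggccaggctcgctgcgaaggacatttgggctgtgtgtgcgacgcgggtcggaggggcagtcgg
DUSP15, chr20:31870615-31870914, minus strand: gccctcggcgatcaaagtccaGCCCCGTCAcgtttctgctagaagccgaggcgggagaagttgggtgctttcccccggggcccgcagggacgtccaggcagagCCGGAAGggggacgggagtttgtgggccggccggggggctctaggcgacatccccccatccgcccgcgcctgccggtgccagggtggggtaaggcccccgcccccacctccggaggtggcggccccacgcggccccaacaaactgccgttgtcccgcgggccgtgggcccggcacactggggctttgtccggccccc
SPRY1, chr4:123398136-123398435, plus strand: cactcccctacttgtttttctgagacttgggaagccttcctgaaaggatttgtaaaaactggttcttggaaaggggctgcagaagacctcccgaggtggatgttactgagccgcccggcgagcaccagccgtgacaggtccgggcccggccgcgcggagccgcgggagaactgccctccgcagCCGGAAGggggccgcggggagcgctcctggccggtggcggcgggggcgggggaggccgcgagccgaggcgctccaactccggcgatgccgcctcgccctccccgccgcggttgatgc
In the DUSP8 window the 2 cyclic AMP elements start 118 and 74 bases before the transcript start. The element of DUSP1 starts 125 bases before the transcript start and its antioxidant core 115 bases before. The DUSP15 window holds its antioxidant core 229 bases and its ETS site 147 bases before the start, and the ETS site of SPRY1 lies 67 bases before the start. These are 1 of 3 windows for DUSP15 and 1 of 2 for SPRY1, each with its own transcript start, and the other windows of these genes held none of the 5 motifs.

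Among the nuclear, inducible MAP kinase phosphatases 2 of 3 tested members fell and none rose. DUSP5 (ENSG00000138166, chr10:110497838-110511544, plus strand) had 1109, 1043 and 1180 CPM in the PM2.5 libraries, against 1675, 1735 and 1184 CPM in the Control libraries. The groups did not overlap, but Control replicate 3 lay within 5 CPM of the highest PM2.5 library. DUSP5 fell 1.38-fold (log2 change -0.46 ± 0.13, SE, with an adjusted p of 0.0126 by the quasi-likelihood test of edgeR). The fall was larger without Control replicate 3 (-0.62, adjusted p = 4.53e-05) and missed the threshold without Control replicate 1 (adjusted p = 0.0537), Control replicate 2 (0.0772), PM2.5 replicate 1 (0.0635) or PM2.5 replicate 2 (0.0573). A pseudogene of DUSP5, DUSP5P1, had 9 to 16 counts in the PM2.5 libraries and 3 to 15 counts in the Control libraries, while DUSP5 itself had 34571 to 40456 counts in the PM2.5 libraries and 40464 to 56242 counts in the Control libraries. DUSP4, a nuclear phosphatase of ERK, JNK and p38 on chromosome 8, had 539, 470 and 574 CPM in the PM2.5 libraries, against 659, 655 and 612 CPM in the Control libraries. All PM2.5 libraries were lower than all Control libraries, and the fall was 1.22-fold (log2 change -0.28 ± 0.10, SE, adjusted p = 0.0417). This call lay close to the threshold: it was lost without Control replicate 1 (adjusted p = 0.138) or 2 (0.127), without PM2.5 replicate 1 (0.165) or 2 (0.186), with DESeq2's size factors (0.0623) and with upper-quartile scaling (0.0523).

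DUSP1, an immediate early phosphatase that prefers p38 and JNK (ENSG00000120129, chr5:172768090-172771195, minus strand), had 277, 262 and 296 CPM in the PM2.5 libraries, against 342, 376 and 193 CPM in the Control libraries. Control replicates 1 and 2 were above every PM2.5 library and Control replicate 3 was below every one, so the groups overlapped. DUSP1 missed the threshold (log2 change -0.13 ± 0.17, SE, adjusted p = 0.608). Without Control replicate 3 the log2 change was -0.37 with an adjusted p of 0.00338 by the same test, and over the alternatives tried it ran from -0.37 to 0.05. Summed over the 4 genes of the class, DUSP2 included, the level was 1916 ± 137 CPM in the PM2.5 libraries and 2477 ± 425 CPM in the Control libraries (SD, n = 3 each). Control replicate 3, at 1990 CPM, lay inside the range of the PM2.5 libraries, from 1775 to 2049 CPM.

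DUSP6 was the cytoplasmic ERK phosphatase that changed. This gene (ENSG00000139318, chr12:89347232-89353271, minus strand) had 835, 795 and 824 CPM in the PM2.5 libraries, against 1201, 1240 and 1056 CPM in the Control libraries. Every PM2.5 library was below every Control library, and DUSP6 fell 1.42-fold (log2 change -0.51 ± 0.10, SE, with an adjusted p of 0.00105 by the quasi-likelihood test of edgeR). It stayed lower and called without any single library, with a log2 change of -0.58 to -0.47 over these fits. An antisense gene, AC024909.2, covers 40.5% of the exonic bases of DUSP6, and the strand setting of the counting is not given. The antisense gene itself had 49 to 60 counts in the PM2.5 libraries and 26 to 70 counts in the Control libraries.

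DUSP7, its close cytoplasmic relative, did not pass the test. It had 122, 120 and 139 CPM in the PM2.5 libraries, against 125, 118 and 102 CPM in the Control libraries (log2 change 0.15 ± 0.10, SE, adjusted p = 0.3). DUSP9, the third of the class and X-linked, had a mean of 0.592 ± 0.311 CPM in the PM2.5 libraries and 0.480 ± 0.213 CPM in the Control libraries (SD, n = 3 each), too low for its change to be resolved (log2 change 0.30 ± 0.54, SE).

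The phosphatases that act on JNK and p38 moved in both directions. DUSP10 (ENSG00000143507, chr1:221701424-221742176, minus strand) had 98.3, 94.6 and 101 CPM in the PM2.5 libraries, against 146, 148 and 126 CPM in the Control libraries. The groups were well separated, and DUSP10 fell 1.43-fold (log2 change -0.51 ± 0.09, SE, adjusted p = 0.000636). DUSP8 (ENSG00000184545, chr11:1554044-1571920, minus strand) had 8.15, 8.60 and 9.07 CPM in the PM2.5 libraries, against 4.25, 5.03 and 2.98 CPM in the Control libraries. It rose 2.11-fold (log2 change 1.08 ± 0.19, SE, adjusted p = 0.000549), and its promoter window is the one printed above with 2 cyclic AMP elements. Both calls held without any single library, with log2 changes of -0.59 to -0.48 for DUSP10 and 0.89 to 1.25 for DUSP8. DUSP8 has pseudogene copies, of which DUSP8P5 had 26 to 51 counts in the PM2.5 libraries and 25 to 52 counts in the Control libraries, while DUSP8 had 283 to 311 counts in the PM2.5 libraries and 102 to 163 counts in the Control libraries, so its level is uncertain where reads were shared.

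DUSP16, which targets JNK, had 26.4, 26.6 and 27.3 CPM in the PM2.5 libraries, against 24.3, 21.5 and 23.2 CPM in the Control libraries. Its groups did not overlap, yet the difference missed the threshold (log2 change 0.22 ± 0.11, SE, adjusted p = 0.138). Since DUSP10 outweighed DUSP8 and DUSP16, the summed level of the 3 genes was 133 ± 3.79 CPM in the PM2.5 libraries and 167 ± 12.8 CPM in the Control libraries (SD, n = 3 each).

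**Figure D3:**
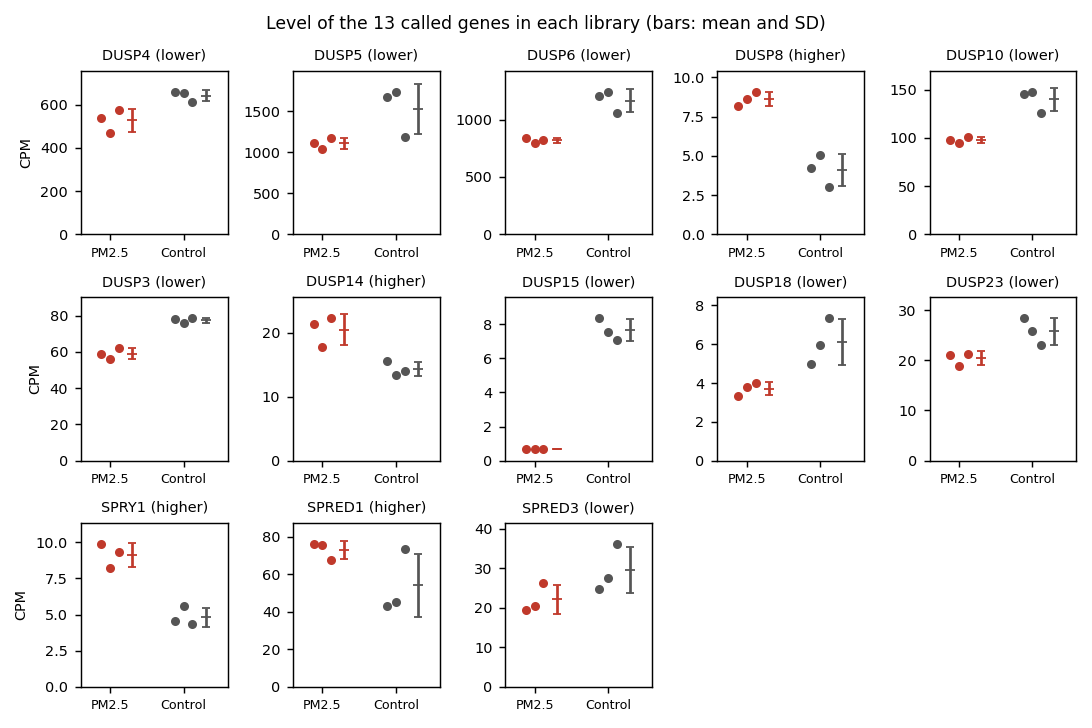
Level in CPM of the 13 called members in each library, PM2.5 in red on the left and Control in grey on the right of each panel, with the mean and SD beside the points. The groups overlap only for SPRED1 and SPRED3, and in SPRED1 the overlap comes from Control replicate 3, at 73.7 CPM.

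Of the 10 tested atypical DUSPs 1 rose and 4 fell. The largest change of the whole set was in DUSP15, a small phosphatase with an N-terminal myristate anchor that is known from myelinating cells (ENSG00000149599, chr20:31847637-31870747, minus strand). It had 23, 22 and 24 counts in the PM2.5 libraries (0.662, 0.664 and 0.700 CPM), against 256, 244 and 242 counts in the Control libraries (8.36, 7.53 and 7.08 CPM). The libraries of each group lay close together and far from those of the other, and DUSP15 fell 11.3-fold (log2 change -3.50 ± 0.22, SE, with an adjusted p of 7.21e-09 by the quasi-likelihood test of edgeR). Over every alternative tried the log2 change stayed between -3.55 and -3.43. Exons of the opposite-strand gene TTLL9 cover 1.21% of its exonic bases, and TTLL9 had 0 to 6 counts in the PM2.5 libraries and 0 to 2 in the Control libraries. Per length DUSP15 ranked among the weakly expressed members in either group.

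DUSP3, a small phosphatase of ERK and JNK known from the cell cycle (ENSG00000108861, chr17:43766121-43778988, minus strand), fell 1.31-fold, with 58.6, 56.2 and 62.1 CPM in the PM2.5 libraries against 77.9, 75.9 and 78.6 CPM in the Control libraries. Its spread was narrow in both groups (log2 change -0.39 ± 0.09, SE, adjusted p = 0.00369), and Control replicate 3 lay with the other Control libraries. DUSP14, a phosphatase of the kinase TAK1 and its partner TAB1 (ENSG00000276023, chr17:37489831-37513501, plus strand), rose 1.43-fold, with 21.5, 17.8 and 22.3 CPM in the PM2.5 libraries against 15.6, 13.5 and 14.02 CPM in the Control libraries (log2 change 0.52 ± 0.13, SE, adjusted p = 0.00672). Both DUSP3 and DUSP14 kept their calls without any single library. DUSP18, a weakly expressed member found at mitochondria (ENSG00000167065, chr22:30652051-30667890, minus strand), had 3.34, 3.801 and 3.99 CPM in the PM2.5 libraries, against 4.97, 5.99 and 7.34 CPM in the Control libraries. It fell 1.64-fold (log2 change -0.72 ± 0.20, SE, adjusted p = 0.0109), a call lost without PM2.5 replicate 1 (adjusted p = 0.059). Other genes cover 38.1% of its exonic bases, chiefly SLC35E4 on the opposite strand, which had 1554 to 1969 counts in the PM2.5 libraries and 1179 to 1299 counts in the Control libraries, so the level of DUSP18 is uncertain.

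DUSP23, the smallest transcript of the family by exon length at 825 bases (ENSG00000158716, chr1:159780932-159782543, plus strand), had 21.2, 18.9 and 21.3 CPM in the PM2.5 libraries, against 28.4, 25.9 and 23.1 CPM in the Control libraries. It fell 1.26-fold (log2 change -0.34 ± 0.12, SE, adjusted p = 0.0407). It was no longer called without PM2.5 replicate 1 (adjusted p = 0.114) or 2 (0.13), without Control replicate 1 (0.198) or 2 (0.0993) and with upper-quartile scaling (0.0511). DUSP11, an RNA triphosphatase rather than a MAP kinase phosphatase, lay just short of the threshold at 23.8, 26.7 and 25.05 CPM in the PM2.5 libraries and 32.3, 30.3 and 29.3 CPM in the Control libraries (log2 change -0.28 ± 0.11, SE, adjusted p = 0.0529). Its groups did not overlap, and it was called without Control replicate 3 (adjusted p = 0.0335). DUSP12, at 20.7, 23.2 and 23.0 CPM in the PM2.5 libraries and 22.1, 22.03 and 22.6 CPM in the Control libraries, gave a log2 change of 0.01 ± 0.11. DUSP22, a regulator of JNK signalling, had 32.003, 32.3 and 31.0 CPM in the PM2.5 libraries and 31.5, 33.1 and 32.6 CPM in the Control libraries (-0.03 ± 0.10). These were the members with the smallest fitted changes beside SPRY4, and neither passed the test. DUSP13 and DUSP28 stayed under 2.2 CPM in all 6 libraries and did not pass it either.

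Of the 4 Sproutys, all tested, 1 rose and none fell. SPRY1, the least abundant but one (ENSG00000164056, chr4:123396795-123403760, plus strand), had 9.85, 8.20 and 9.30 CPM in the PM2.5 libraries, against 4.54, 5.55 and 4.33 CPM in the Control libraries. It rose 1.90-fold with no overlap between the groups (log2 change 0.92 ± 0.17, SE, adjusted p = 0.000639 by the quasi-likelihood test of edgeR), and held without any single library, at 0.85 to 1.04. SPRY4 (ENSG00000187678, chr5:142310427-142326455, minus strand) had 1083, 1039 and 1167 CPM in the PM2.5 libraries, against 1128, 1133 and 970 CPM in the Control libraries. The groups overlapped and SPRY4 missed the threshold (log2 change 0.03 ± 0.10, SE, -0.05 to 0.06 over the alternatives). SPRY2, which binds the ubiquitin ligase CBL, had 344, 334 and 366 CPM in the PM2.5 libraries, against 398, 412 and 349 CPM in the Control libraries. It missed the threshold (-0.15 ± 0.10, SE, adjusted p = 0.261) but passed it without Control replicate 3 (-0.22, adjusted p = 0.0328). SPRY3 stayed under 2 CPM throughout. Because SPRY4 and SPRY2 carry nearly all Sprouty counts, the 4 genes summed to 1455 ± 82.1 CPM in the PM2.5 libraries and 1469 ± 126 CPM in the Control libraries (SD, n = 3 each).

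The SPREDs, which bring the RAS inhibitor neurofibromin to the membrane, gave 1 rise and 1 fall, and both calls were unstable. SPRED1 (ENSG00000166068, chr15:38252326-38357249, plus strand) had 75.9, 75.4 and 67.5 CPM in the PM2.5 libraries, against 43.2, 45.3 and 73.7 CPM in the Control libraries. Control replicate 3 lay inside the range of the PM2.5 libraries, far above the other Control libraries. The rise was 1.35-fold over all libraries (log2 change 0.43 ± 0.16, SE, adjusted p = 0.0442) and larger without Control replicate 3 (0.72, adjusted p = 9.73e-05). Without any other single library SPRED1 missed the threshold (adjusted p of 0.179 and 0.184 without Control replicates 1 and 2, and 0.105, 0.11 and 0.052 with PM2.5 replicates 1, 2 and 3 left out in turn). SPRED3, which lacks the receptor KIT-binding domain of the other two (ENSG00000188766, chr19:38388421-38399587, plus strand), had 19.5, 20.6 and 26.3 CPM in the PM2.5 libraries, against 24.9, 27.6 and 36.1 CPM in the Control libraries. Its groups overlapped (log2 change -0.42 ± 0.15, SE, adjusted p = 0.041), and it was no longer called without Control replicate 3 (-0.25, adjusted p = 0.182), Control replicate 2 (0.0541), PM2.5 replicate 1 (0.199) or PM2.5 replicate 2 (0.127) and with upper-quartile scaling (0.057). SPRED2 had 32.6, 33.7 and 34.2 CPM in the PM2.5 libraries and 32.3, 31.2 and 32.9 CPM in the Control libraries, and missed the threshold (0.06 ± 0.10, SE).

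**Figure D4:**
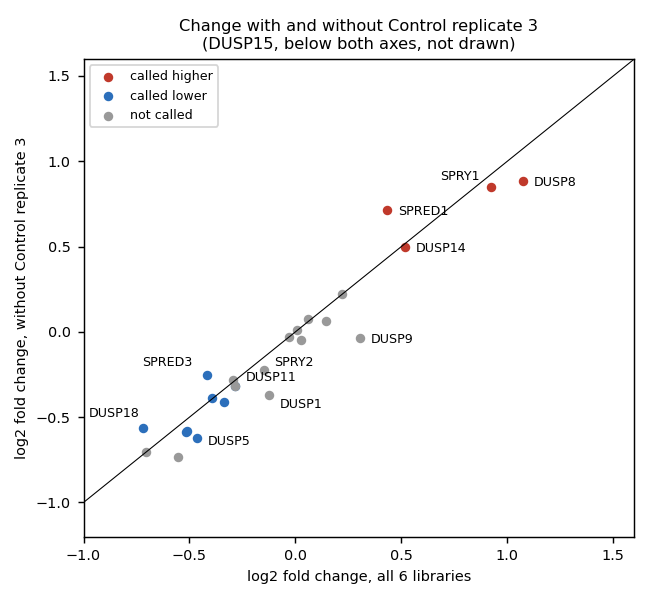
Log2 fold change, PM2.5 over Control, of the tested members other than DUSP15, which lies below both axes, with all 6 libraries (horizontal axis) and without Control replicate 3 (vertical axis). The line marks equal values, and colours give the call with all 6 libraries. SPRED1 lies above the line (0.43 and 0.72), and DUSP1 (-0.13 and -0.37) and DUSP5 (-0.46 and -0.62) lie below it.

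Leaving out Control replicate 3 thus moved members in both directions. The fit without it called 4 members higher and 11 lower, where 17.4% of the 15413 genes tested were called lower. It added DUSP1, DUSP11 and SPRY2 to the falls and dropped SPRED3. Of the 13 members called with all libraries 7 kept their call in all alternatives in which they were tested: DUSP3, DUSP6, DUSP8, DUSP10, DUSP14, DUSP15 and SPRY1. None of the 13 changed sign in any of them. Among the members not called, DUSP1, DUSP9, DUSP12 and SPRY4 did change sign.

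For the lists that follow, the share called over all genes tested is the 31.9% given above. Their counts come from the fit with all libraries. Without Control replicate 3 some uncalled list genes passed the threshold of the quasi-likelihood test, in both directions. Among them, chosen after their values were seen, were HRAS (log2 change -0.30, adjusted p = 0.0222) and NRAS (0.28, adjusted p = 0.0438). Of 14 tested genes of the RAS to ERK cascade, out of 15 listed, 1 rose and 2 fell, with a median log2 change of -0.01. ERK1 (MAPK3) fell to 60.2 ± 4.75 CPM in the PM2.5 libraries, against 75.3 ± 6.84 CPM in the Control libraries (SD, n = 3 each, log2 change -0.32 ± 0.10, SE, adjusted p = 0.0235). The RAF kinase ARAF fell by 0.42 ± 0.11 on the log2 scale and the ERK kinase MAP2K1 rose by 0.31 ± 0.09. Opposite-strand genes cover 11.5% of the exonic bases of MAP2K1. BRAF (-0.08 ± 0.14) did not pass the test. The MAPK3 call was lost without PM2.5 replicate 1 (adjusted p = 0.133) or 2 (0.0867) and without Control replicate 1 (0.119) or 2 (0.0852). That of ARAF was lost without PM2.5 replicate 1 (0.0643) and that of MAP2K1 without PM2.5 replicate 1 (0.0707) or Control replicate 1 (0.0539).

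In the JNK and p38 modules 12 of 14 listed genes were tested, of which 1 rose and 2 fell (median log2 change 0.12). The p38 isoform MAPK13 fell by 0.43 ± 0.09 on the log2 scale and MAPKAPK3, a kinase downstream of p38, by 0.38 ± 0.09. MAP2K3, a p38 activator, rose by 0.34 ± 0.12. The MAPKAPK3 call was lost without PM2.5 replicate 1 (adjusted p = 0.0666), and that of MAP2K3 without PM2.5 replicate 1 (0.103) or 3 (0.147) and without Control replicate 2 (0.0653) or 3 (0.0977).

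Genes known as transcriptional outputs of ERK moved both ways, with 2 of 13 tested genes higher and 4 lower and a median log2 change of 0.07. The early growth response factor EGR1 fell to 510 ± 42.4 CPM in the PM2.5 libraries, against 735 ± 20.1 CPM in the Control libraries (SD, n = 3 each). The cytokine LIF fell by 0.95 ± 0.13 on the log2 scale, IER3 by 0.50 ± 0.12 and PHLDA1 by 0.41 ± 0.10, while the EGF receptor ligand HBEGF rose by 0.78 ± 0.10. Antisense genes cover 26.5% of the exonic bases of IER3 and 16.5% of those of PHLDA1. Cyclin D1 (CCND1) had 952 ± 19.6 CPM in the PM2.5 libraries and 956 ± 16.1 CPM in the Control libraries, and neither it nor the ETS factors ETV4 (0.11 ± 0.11) and ETV5 (0.23 ± 0.10) passed the test. The other rise was the receptor EPHA2 (0.31 ± 0.10), chosen after its values were seen, whose call was lost without PM2.5 replicate 1 (adjusted p = 0.101) or 3 (0.112) and without Control replicate 1 (0.0741) or 2 (0.072). The PHLDA1 call was lost without PM2.5 replicate 1 (0.0566).

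Of 12 other brakes on the ERK pathway, all of them tested, 3 rose and 1 fell (median log2 change 0.10). RASA1, a GTPase-activating protein for RAS, rose to 65.6 ± 11.7 CPM in the PM2.5 libraries, against 33.7 ± 4.78 CPM in the Control libraries, and LRIG1, which restrains EGF receptors, to 103 ± 3.34 CPM in the PM2.5 libraries, against 58.4 ± 3.999 CPM in the Control libraries (SD, n = 3 each). IL17RD, an inhibitor of FGF signalling, rose by 0.51 ± 0.14 on the log2 scale, a call lost without PM2.5 replicate 2 (0.34, adjusted p = 0.0779). The RAS GTPase-activating protein RASAL2 fell by 0.68 ± 0.12. Opposite-strand genes cover 14.7% of the exonic bases of RASA1 and 12.9% of those of LRIG1. Neurofibromin (NF1), the partner of the SPREDs, missed the threshold (0.34 ± 0.15, adjusted p = 0.0927) but passed it without PM2.5 replicate 3 (0.47, adjusted p = 0.0223).

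Dual specificity phosphatases outside the DUSP symbols had 4 of 16 tested genes higher and 4 lower (median log2 change 0.08), out of 17 listed. The higher ones act in the cell cycle: CDKN3, which dephosphorylates cyclin-dependent kinases, rose to 47.8 ± 2.44 CPM in the PM2.5 libraries, against 14.4 ± 1.43 CPM in the Control libraries, and the CDK-activating phosphatases CDC25C and CDC25B rose by 1.98 ± 0.18 and 1.05 ± 0.11 on the log2 scale. They moved with MKI67, and the part of proliferation was not tested. The cofilin phosphatase SSH1 fell to 124 ± 3.64 CPM in the PM2.5 libraries, against 170 ± 10.96 CPM in the Control libraries. The other rise, CDC25A (0.45 ± 0.14), and the other falls, STYXL1 (-0.44 ± 0.12), SSH3 (-0.41 ± 0.13) and PTP4A3 (-0.68 ± 0.22), were chosen after their values were seen. CDC25A was no longer called when PM2.5 replicate 1 (adjusted p = 0.086) or Control replicate 1 (0.068) was left out, and STYXL1 when PM2.5 replicate 2 (0.0546) or Control replicate 1 (0.06) was. SSH3 lost its call with PM2.5 replicate 1 (0.0751), PM2.5 replicate 2 (0.0797) or Control replicate 1 (0.135) left out. PTP4A3 lost its call with PM2.5 replicate 1 (0.0931), PM2.5 replicate 3 (0.0816), Control replicate 1 (0.106) or Control replicate 2 (0.0571) left out.

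**Figure D5:**
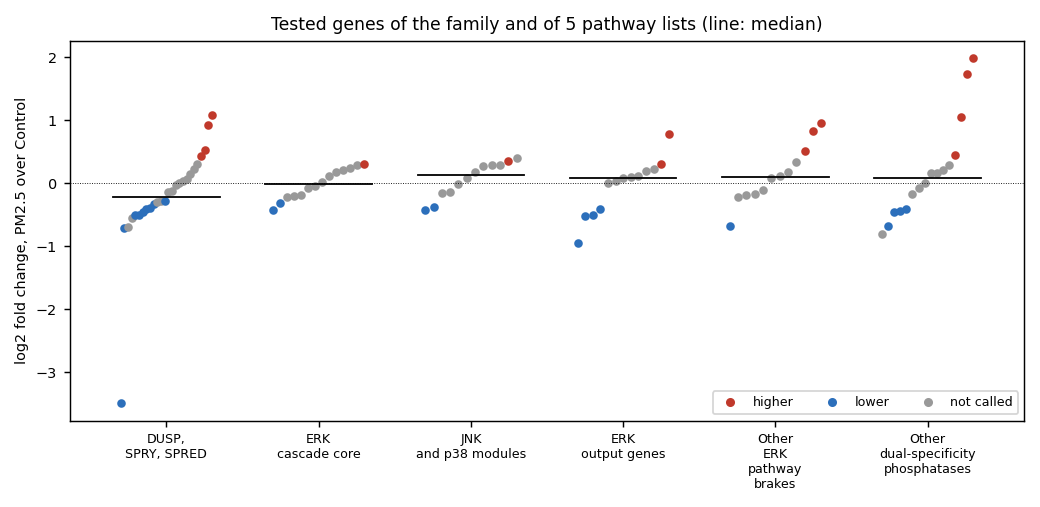
Log2 fold change, PM2.5 over Control, of the tested DUSP, SPRY and SPRED genes and of the tested genes of 5 pathway lists, each gene a point placed by rank within its list. Red points were called higher, blue points lower and grey points not called, and lines are medians. The median of the DUSP, SPRY and SPRED genes is -0.22 and those of the 5 lists lie between -0.01 and 0.12.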

How the data were processed

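RNA-seq gene counts from 3 PM2.5 and 3 Control libraries of MDA-MB-231 cells were used. Per the file headers, the authors deposited raw counts per gene in 1 table, together with symbols, coordinates and lengths. The submitters' processing notes name GRCh38, while aligner, counter and strand setting are not given. Identifiers, coordinates and lengths of all 58735 genes matched GENCODE release 29, from which exon overlaps were taken. Columns were assigned to libraries by their titles.

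The fit used edgeR 4.0.16 under R 4.3.3: filterByExpr (at least 10 counts, total of at least 15), TMM scaling, and a two-sided quasi-likelihood test on group alone, with Benjamini-Hochberg adjustment over 14975 genes. SE values are the absolute log2 change over the root of the F statistic. The code was tested on simulated data in which 200 of 14975 genes were changed. There 59.7% of 67 genes changed 1.5-fold, 62.3% of 69 changed 2-fold and 95.3% of 64 changed 4-fold were called. In the real data 4775 genes were called, which sets another cutoff on p, so these rates need not carry over. A gene not called may still have changed. Alternatives were other scalings and filters, DESeq2 1.42.0, limma-voom (limma 3.58.1), leaving out each library, and a replicate block. Chi-square per degree of freedom between replicates was 5.61 or more, above sampling noise, so each counted as a separate library. Totals ran from 31846136 to 34691009 counts.

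The members, the pathway lists and the rule for named genes were chosen with earlier results of these data known. The rule gave library values for called members and for uncalled ones averaging at least 20 CPM, and named up to 4 called genes per list with the smallest p plus 11 set genes, of which some are not reported here.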

Additional observations from a re-analysis of the deposited data

How the results depend on the processing

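Over the 13 alternatives the number of members called higher was 3 or 4, against 4 with the main settings. The number called lower was 6 with a replicate block and 6 with upper-quartile scaling, and 4 to 11 when single libraries were left out, against 9. The count with upper-quartile scaling was not compared with that over all genes, so it is not read as particular to the members. Over all genes, leaving out single libraries gave 1797 to 2600 genes called higher and 1448 to 2680 called lower, against 2410 and 2365. With a replicate block 1951 genes were called higher, 1826 lower (12.2% of those tested) and 3 members higher. The members not called with the block were DUSP4 (adjusted p = 0.0828), DUSP5 (0.0518), DUSP23 (0.0689) and SPRED1 (0.0666). The replicate numbers were not found to pair the libraries: same-numbered libraries correlated at -0.002, -0.051 and -0.122 in their deviations from the group means. The cause of these shifts was not tested. No member reversed its direction past the threshold in any fit. Of 336 member results under the alternatives 303 kept their side of the threshold, 30 lost a call and 3 gained one. DESeq2, limma-voom, no filter and the stricter filter (at least 1 CPM in 3 libraries, which left out DUSP9 and DUSP13) changed no member call. Depth limits the members that stayed under 2 CPM in every library of both groups, whose changes could not be resolved.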
